A study of Mus musculus with 16 samples.

Results

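The transporters described here carry bile acids, conjugated organic anions, phospholipid and sterols across the membranes of the hepatocyte. They are Slc10a1, Slco1a1, Slco1b2, Abcb11, Abcb4, Abcc2, Abcc3, Abcg5 and Abcg8, and they were taken by name as the spots of the array, control spots left out, whose gene name in the array's design is 1 of these symbols. These 9 genes, of 21337 named genes on the array, were carried by 13 probes. Each gene had 1 probe except Slco1a1, Abcb4, Abcc3 and Abcg8, which had 2 each, and the brighter probe stood for the gene.

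The series has 16 single-colour Agilent arrays of RNA from female C57Bl/6 mice, every one of which had received concanavalin A (300 µg), a lectin whose activation of T cells brings on acute hepatitis. Liver was taken at 2 h from 3 mice without stem cells and 3 mice that received them together with the lectin, and at 5 h from 3 mice without stem cells and 3 that received them at 3 h. The stem cells had been grown out of inguinal fat of C57Bl/6 mice, and 100000 of them were injected into the tail vein. Hepatic inflammatory cells at 5 h formed another 2 groups of 2 samples, without stem cells (samples 983 and 985) and with stem cells at 3 h (samples 987 and 989). For samples 983 and 985 the source label also mentions the stem cells, while the treatment and description labels do not, and both were used as untreated. No mouse without concanavalin A is among the samples analysed here, so the values at 2 h are not those of a healthy liver. The age of the mice is not given in the labels, nor whether the samples of inflammatory cells came from separate mice, so p-values for those cells measure only the spread between these samples.

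A hepatocyte takes bile acids up from sinusoidal blood and secretes them, with other bile components, across the canalicular membrane into bile. Uptake runs through the sodium-dependent carrier NTCP (Slc10a1) and the sodium-independent OATP carriers (Slco1a1, Slco1b2). Secretion runs through ATP-driven pumps: BSEP (Abcb11) for bile salts, MDR2 (Abcb4) for phosphatidylcholine, MRP2 (Abcc2) for conjugates such as bilirubin glucuronides, and the paired transporters Abcg5 and Abcg8 for sterols, while MRP3 (Abcc3) exports conjugates back to the blood.

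All levels below are log2 signal relative to the 75th percentile of the array, and the ± beside a log2 difference gives its standard error in limma's model, with 3 livers a group unless stated. Per array, 52.1% to 62.5% of spots were well above background and 0 were saturated, and the number of arrays limits the precision. All 13 probes were well above background on all 12 liver arrays, so all 9 genes passed the filter on dim probes there. Slides 1 to 3 each held 1 array of every liver group, and slide 4 held the inflammatory cells alone. On slides 1 to 3 the 2 h livers lay at position 1 (no stem cells) or 2 (stem cells). The 5 h livers lay at positions 3 and 4, so time and position on the slide cannot be told apart, also within a slide. Nor can position be told apart from treatment at 2 h, or in the cells (untreated at 1 and 2, treated at 3 and 4). Mice 10 (2 h, stem cells) and 13 (2 h, none) differed from the remaining 2 h livers, with a median level of 3.45 and 3.63 over 10 cytokine and acute phase genes against 6.38 to 6.96 in the other 4. Of 20 hepatocyte markers 19 were measured, and all 19 were well above background in every liver.

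Between 2 h and 5 h of hepatitis, 3 of the 9 transporters fell in livers without stem cells: the sterol transporters Abcg8 (by 2.05 ± 0.27, 4.13-fold) and Abcg5 (by 1.15 ± 0.15, 2.21-fold) and the conjugate pump Abcc2 (by 0.99 ± 0.15, 1.99-fold). No transporter rose. The share of all 14654 genes called in this comparison was 15.7%, with 9.21% called lower and 6.46% higher, and the median change was -0.42 over the 9 transporters and -0.07 over all genes. In the 6 livers of mice given stem cells, which share no mouse with the untreated ones, the fall again passed the test for Abcg8 (1.60 ± 0.27), Abcc2 (0.70 ± 0.15) and Abcg5 (0.68 ± 0.15) alone, against 18.6% of all genes called, 9.79% lower and 8.78% higher. In those treated livers the hour at which the stem cells were given, 0 h or 3 h, differs as well as the time. The effects of the 2 cannot be told apart. Whole liver was measured, so fewer hepatocytes and less RNA per hepatocyte cannot be told apart. The median level of the 19 hepatocyte markers was 7.79 to 8.08 in the 2 h and 7.59 to 7.77 in the 5 h livers without stem cells, and their summed level on the log2 scale was 12.73 to 13.00 and 12.72 to 13.08. Of these 19 markers 1 rose (Fga, a fibrinogen chain, by 0.99) and 2 fell, among them Uox, an enzyme of urate breakdown (by 0.77), and the median change over the list was -0.07.

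**Figure D1:**
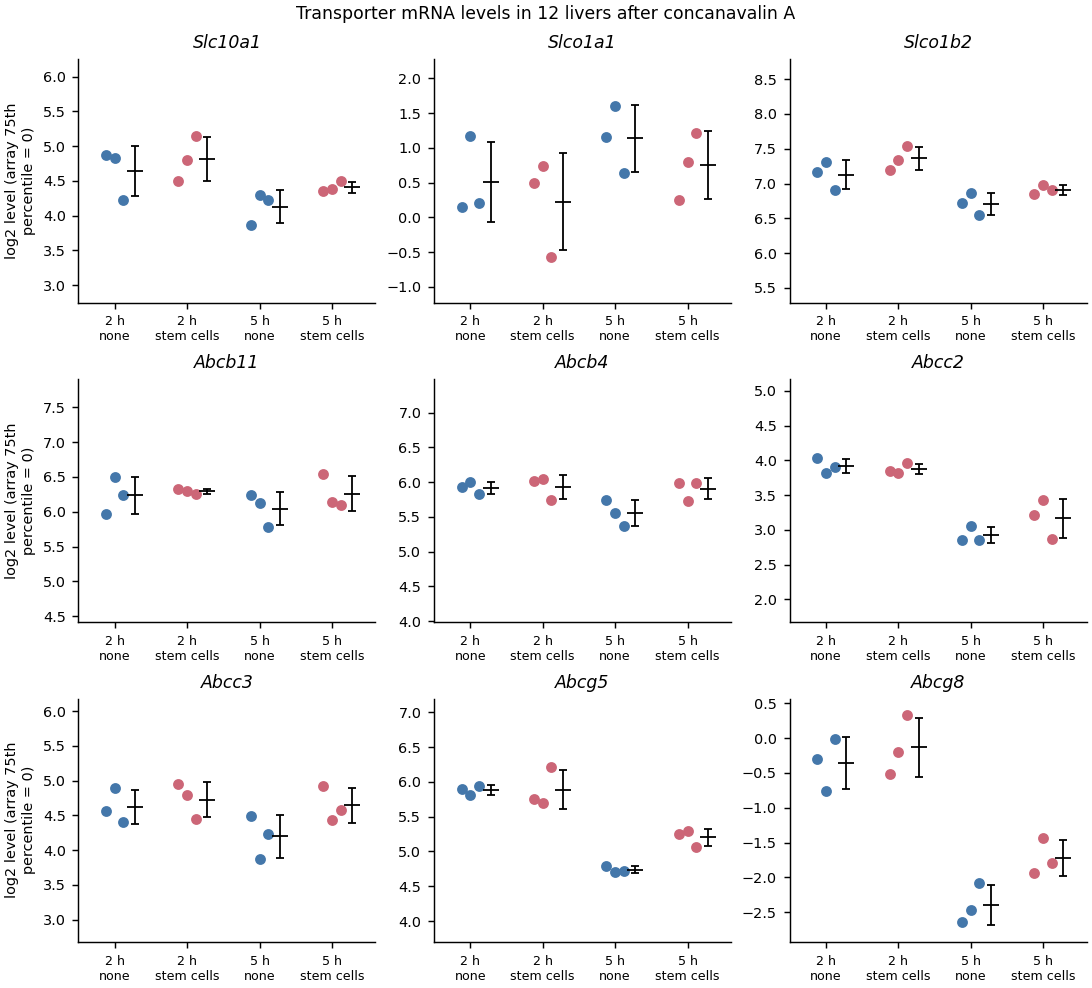
Log2 level of each transporter in the 12 livers, with 1 point per mouse, by time after concanavalin A and stem cell treatment; black bars give the mean ± SD of 3 livers, and every panel spans the same height on the log2 axis. Abcc2, Abcg5 and Abcg8 are lower in all 6 livers at 5 h than in all 6 at 2 h, while the 2 h and 5 h livers of the other 6 overlap when both treatments are pooled.

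Of the 9 transporters Abcg8 gave the largest change in both treatments. Abcg5 and Abcg8 form 1 pump, an obligate heterodimer that moves cholesterol and plant sterols into bile. In the 2 h livers without stem cells (mice 11, 12 and 13) the level of Abcg8 was -0.30, -0.75 and -0.01, and in the 5 h livers without them (mice 4, 5 and 6) it was -2.65, -2.46 and -2.08. Livers of mice given stem cells read -0.51, -0.21 and 0.33 at 2 h (mice 8, 9 and 10) and -1.94, -1.44 and -1.80 at 5 h (mice 1, 2 and 3). Every 5 h liver thus lay below every 2 h liver, and among the 5 h livers the 3 without stem cells were the lowest. The fall had an adjusted p of 0.00251 without and 0.00422 with stem cells (limma, Benjamini-Hochberg over 14654 genes). Within slides 1, 2 and 3 the change without stem cells was -1.89, -2.17 and -2.08. The dimmer Abcg8 probe (mm8, chr17:84603387-84603446) went the same way, by -1.58 without and -0.87 with stem cells, against -2.05 and -1.60 for the probe at chr17:84607731-84607790.

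The level of Abcg5 (probe at mm8, chr17:84566590-84566649) was 5.90, 5.81 and 5.94 in the 2 h livers without stem cells and 4.79, 4.70 and 4.72 in the 5 h livers without them. In the treated mice it was 5.76, 5.69 and 6.21 at 2 h and 5.25, 5.30 and 5.06 at 5 h. The 4 groups therefore stood in 3 steps that did not overlap: the 2 h livers, then the treated 5 h livers, then the untreated 5 h livers. The adjusted p of the fall was 0.00252 without and 0.0135 with stem cells (limma), and without stem cells the change was -1.01, -1.21 and -1.22 within the 3 slides. The treated fall was no longer called without mouse 3 (0.61, adjusted p = 0.0563), nor with normexp (-0.30, adjusted p = 0.594), the array median (-0.63, adjusted p = 0.0725) or scaling to hepatocyte markers (-0.44, adjusted p = 0.102).

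Abcg5 and Abcg8 lie head to head on chromosome 17, and RefSeq promoter windows (GRCm38.p6, 250 bases before to 50 after each start) give 1 start for Abcg5 and 2 for Abcg8. The second Abcg8 window overlaps that of Abcg5 by 209 bases, with 110 bases between these start sites, while the first (chr17:84676052-84676351) overlaps it by 0 bases and holds 0 of the motifs searched. The overlapping pair is shown because the stretch is shared by the 2 genes, and the arrays do not tell which Abcg8 start was used. The Abcc2 window is shown as that of the third gene called, and the Abcb11 window as that of a canalicular pump that was not called. Windows were given for 8 of the 9 genes, 10 windows in all. Capitals mark matches on either strand to AGGTCA or to AGTTCA (sites bound by nuclear receptors), GTTAAT (HNF1 site core), CAAAGT (HNF4 core), CACGTG (E-box), TTATGTA (D-box core), TTGCGC (C/EBP core) or TATAAA (a core promoter box).
Abcg5, chr17:84682962-84683261, minus strand: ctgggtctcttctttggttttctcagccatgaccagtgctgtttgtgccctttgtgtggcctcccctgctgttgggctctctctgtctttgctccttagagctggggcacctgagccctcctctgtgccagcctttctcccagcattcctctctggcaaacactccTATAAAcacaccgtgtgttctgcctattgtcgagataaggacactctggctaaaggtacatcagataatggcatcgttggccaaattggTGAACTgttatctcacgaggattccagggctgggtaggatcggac
Abcg8, chr17:84682871-84683170, plus strand: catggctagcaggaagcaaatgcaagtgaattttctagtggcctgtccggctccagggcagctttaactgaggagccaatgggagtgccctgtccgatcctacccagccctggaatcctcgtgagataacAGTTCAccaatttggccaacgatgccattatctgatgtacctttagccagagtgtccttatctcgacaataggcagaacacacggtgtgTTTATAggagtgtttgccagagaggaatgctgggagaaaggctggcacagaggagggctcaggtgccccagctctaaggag
Abcc2, chr19:43782058-43782357, plus strand: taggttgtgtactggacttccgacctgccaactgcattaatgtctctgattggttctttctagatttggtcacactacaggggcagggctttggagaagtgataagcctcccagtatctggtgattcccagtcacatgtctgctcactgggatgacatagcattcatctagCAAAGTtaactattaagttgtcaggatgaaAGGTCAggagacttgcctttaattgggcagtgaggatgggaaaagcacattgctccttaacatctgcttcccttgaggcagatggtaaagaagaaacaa
Abcb11, chr2:69342567-69342866, minus strand: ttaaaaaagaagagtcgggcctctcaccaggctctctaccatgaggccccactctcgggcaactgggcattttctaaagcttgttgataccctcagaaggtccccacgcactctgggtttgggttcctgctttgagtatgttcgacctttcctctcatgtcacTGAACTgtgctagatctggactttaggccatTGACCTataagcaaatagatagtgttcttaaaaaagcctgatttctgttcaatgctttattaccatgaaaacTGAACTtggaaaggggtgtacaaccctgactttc

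The capitals in the Abcg5 and Abcg8 windows are the same bases read from both sides: 1 TATAAA match at chr17:84683090-84683095, which begins 84 bases before the start of Abcg5 and 31 before that of Abcg8, and 1 AGTTCA match at chr17:84683001-84683006. TATAAA occurs in 13.6% and AGTTCA in 14.0% of the 32851 windows of that length in the table. The Abcc2 window holds CAAAGT 79 bases and AGGTCA 49 bases before the start, and the Abcb11 window holds AGGTCA once and AGTTCA in 2 places. AGGTCA occurs in 16.3% and CAAAGT in 14.4% of all windows. Over the 10 windows of the transporters, AGGTCA occurred in 5, as did AGTTCA and also TATAAA, with CAAAGT in 3 and GTTAAT in 1 (7.10% of all windows). The counts for AGTTCA and TATAAA take the bases shared by Abcg5 and Abcg8 once for each gene's window, so these 10 windows are not separate stretches. None of the 10 held CACGTG (7.15%), TTATGTA (2.63%) or TTGCGC (6.49%), and no 2 matches overlapped within a window. These matches describe letters in a window and do not show that a factor binds there.

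Abcc2 encodes MRP2, the canalicular pump for bilirubin and glutathione conjugates. Its level (probe at mm8, chr19:43890900-43890959) was 4.03, 3.82 and 3.90 in the 2 h livers without stem cells and 2.86, 3.06 and 2.86 in the 5 h livers without them. The treated livers read 3.85, 3.82 and 3.95 at 2 h and 3.22, 3.42 and 2.87 at 5 h. All 6 livers at 5 h were below all 6 at 2 h, and the treated and untreated 5 h livers overlapped. The adjusted p was 0.00444 without and 0.0125 with stem cells (limma), and the untreated change was -0.96, -0.97 and -1.04 within the 3 slides. With normexp background correction the change without stem cells was -0.98 for Abcc2 (adjusted p = 0.132) and -1.14 for Abcg5 (adjusted p = 0.105), so neither was called there, while Abcg8 was called in both time comparisons under every setting run. The treated fall of Abcc2 was not called with normexp (-0.36, adjusted p = 0.499), the array median (-0.65, adjusted p = 0.0602) or scaling to hepatocyte markers (-0.46, adjusted p = 0.0916).

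The uptake carriers were not called at either treatment. For Slc10a1, the main sodium-dependent bile acid carrier (probe at mm8, chr12:81879331-81879390), the level was 4.87, 4.83 and 4.23 in the 2 h livers without stem cells and 3.86, 4.30 and 4.23 in the 5 h livers without them. With stem cells it was 4.50, 4.80 and 5.14 at 2 h and 4.35, 4.38 and 4.49 at 5 h. The untreated groups overlapped through mouse 13, whose level of 4.23 lay among the 5 h values. The change was -0.51 ± 0.22 without stem cells (adjusted p = 0.133) and -0.41 ± 0.22 with them (adjusted p = 0.223, limma). Without mice 10 and 13 the untreated change was -0.72 and was called (adjusted p = 0.0269). Within slides 1, 2 and 3 that change was -0.97, -0.57 and -0.0005, and under other settings its adjusted p reached 0.645 (limma).

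Slco1b2 is the liver's OATP1B carrier of bilirubin, bile acids and many drugs (probe at mm8, chr6:141648361-141648420). Its level was 7.16, 7.32 and 6.90 at 2 h and 6.73, 6.86 and 6.54 at 5 h without stem cells, and 7.20, 7.34 and 7.54 at 2 h and 6.84, 6.98 and 6.91 at 5 h with them. The times did not overlap within either treatment. The change was -0.42 ± 0.15 (adjusted p = 0.0858) and -0.45 ± 0.15 (adjusted p = 0.0626), just outside the threshold (limma). The untreated change was called without mice 10 and 13 (-0.53, adjusted p = 0.0405) and with quantile normalization (-0.49, adjusted p = 0.0384), and so was the treated one with quantile normalization (-0.54, adjusted p = 0.0217). Other settings made it smaller. Over all settings it ran from -0.59 to -0.12 without stem cells, with adjusted p up to 0.705 (limma). With them it ran from -0.63 to -0.07, with adjusted p up to 0.909 (limma). The size of this change thus depended on the processing, and its sign did not.

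Slco1a1, a sodium-independent carrier of organic anions, was the 1 transporter with a higher mean at 5 h. Its level (probe at mm8, chr6:141871298-141871357) was 0.15, 1.17 and 0.20 at 2 h and 1.15, 1.60 and 0.64 at 5 h without stem cells. With stem cells it was 0.49, 0.74 and -0.56 at 2 h and 0.25, 0.79 and 1.22 at 5 h. The groups overlapped, its spread between livers was the widest of the 9, and the change of 0.63 ± 0.42 (adjusted p = 0.333) or, with stem cells, 0.53 ± 0.42 (adjusted p = 0.422) did not pass the test. The second probe went the same way, by 0.81 and 0.74.

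The pumps for bile salts and phospholipid were not called. For Abcb11, the bile salt export pump (probe at mm8, chr2:69039172-69039231), the level was 5.97, 6.50 and 6.23 at 2 h and 6.24, 6.12 and 5.77 at 5 h without stem cells, and 6.33, 6.29 and 6.26 at 2 h and 6.55, 6.14 and 6.09 at 5 h with them. Its groups overlapped in both treatments. The 95% intervals of its change, -0.60 to 0.22 without and -0.44 to 0.38 with stem cells, lie above the fitted falls of Abcc2, Abcg5 and Abcg8 in the same livers, and the difference between genes was not tested.

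For Abcb4, the phosphatidylcholine floppase (probe at mm8, chr5:8965114-8965173), the level was 5.93, 6.00 and 5.82 at 2 h and 5.75, 5.55 and 5.36 at 5 h without stem cells. In treated livers the values were 6.02, 6.05 and 5.74 at 2 h and 5.99, 5.73 and 5.99 at 5 h. The untreated groups did not overlap and the treated ones did. The change was -0.36 ± 0.15 (adjusted p = 0.119) without and -0.03 ± 0.15 (adjusted p = 0.918) with stem cells. The second, dimmer probe gave -0.24 and 0.26.

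Abcc3, the basolateral exporter of conjugates (probe at mm8, chr11:94159447-94159506), stood at 4.56, 4.89 and 4.41 at 2 h and 4.49, 3.88 and 4.23 at 5 h without stem cells. Treated livers stood at 4.94, 4.79 and 4.45 at 2 h and 4.93, 4.43 and 4.57 at 5 h. The times overlapped in both treatments, with changes of -0.42 ± 0.22 (adjusted p = 0.208) and -0.08 ± 0.22 (adjusted p = 0.832). Groups of 3 livers that did not overlap, lower at 5 h, were seen for 5 of the 9 transporters in each treatment, against 20.7% of all genes without and 24.3% with stem cells. With 3 livers against 3 the exact permutation test cannot give a 2-sided p below 0.1.

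**Figure D2:**
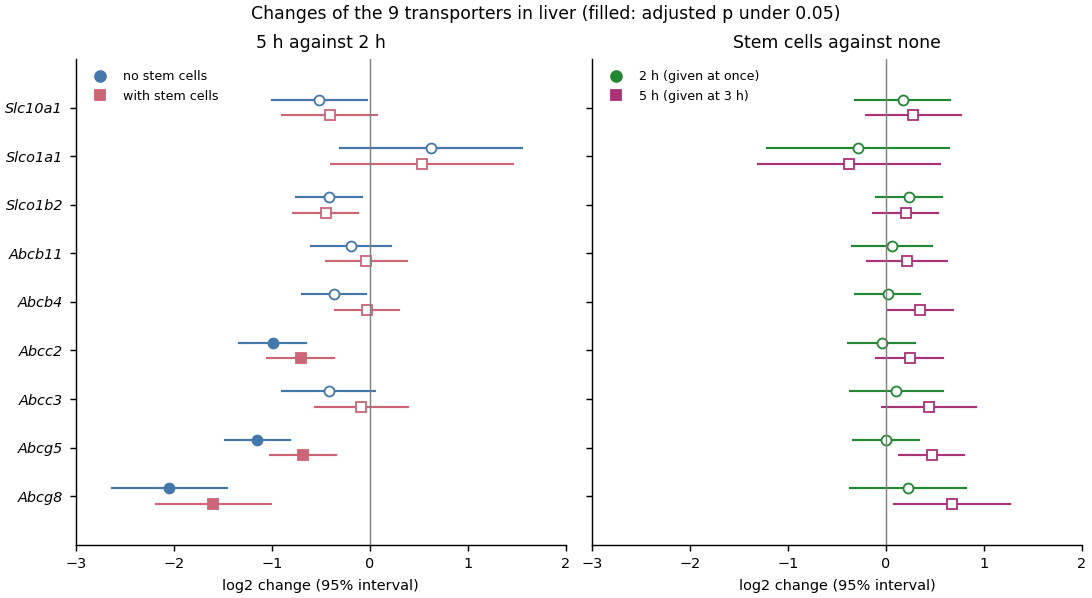
Log2 change of each transporter in liver with its 95% interval from the limma fit, for 5 h minus 2 h on the left and for stem cells minus none on the right; filled symbols have an adjusted p under 0.05. Only Abcc2, Abcg5 and Abcg8 are filled on the left, in both treatments, and none on the right.

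Other genes of bile acid handling moved in both directions over the same interval. Of 17 measured regulators 6 fell without stem cells and 0 rose (all genes: 9.21% lower, 6.46% higher): Ppara, the fatty acid receptor (by 2.16 ± 0.36), Klb, the co-receptor of FGF15 signalling (by 1.81 ± 0.25), the xenobiotic receptor Nr1i3 or CAR (by 1.30 ± 0.23), the bile acid receptor Nr1h4 or FXR (by 1.00 ± 0.19), the oxysterol receptor Nr1h3 or LXRα (by 0.66 ± 0.15) and Rxra, the partner with which these receptors bind DNA (by 0.54 ± 0.15). With stem cells 4 fell: Ppara by 2.75, Klb by 1.37, Nr1h3 by 0.59 and Rxra by 0.57. The median change of the regulators was -0.47 and -0.48, against -0.07 and -0.08 over all genes. Of 18 other settings, Klb and Nr1i3 kept their calls without stem cells in all 18, Ppara in 17, Nr1h4 in 16, Nr1h3 in 10 and Rxra in 6. Scaled to hepatocyte markers, Nr1h3 and Rxra were not called and Nr1h2 (LXRβ) and Vdr, the vitamin D receptor, both named after their values were seen, were called higher. Nr0b2 or SHP, a repressor induced by FXR, was singled out after its values were seen: it gave -1.59 ± 1.11 (adjusted p = 0.353) and -2.89 ± 1.11 (adjusted p = 0.0967).

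Of 24 other hepatobiliary transporters and partners, 4 rose and 4 fell without stem cells (all genes: 15.7% called). Those that rose were Slc51b, the β subunit of the basolateral bile acid exporter OSTα/β (1.83 ± 0.32), Slco3a1, an organic anion carrier (1.65 ± 0.25), the cholesterol efflux pump Abca1 (1.47 ± 0.25) and the membrane linker ezrin, Ezr (1.09 ± 0.16). Those that fell were the carriers Slco1a4 (by 0.99 ± 0.29) and Slco2b1 (by 0.60 ± 0.17) and the pumps Abcc4 (by 0.86 ± 0.25) and Abcc6 (by 0.63 ± 0.18). With stem cells the 4 that rose were the same genes (Slc51b 2.52, Abca1 1.84, Slco3a1 1.54, Ezr 1.27), and 2 fell, Slco2b1 by 0.57 and the sodium-dependent carrier Slc10a2 by 0.84. The sterol pumps thus differed in direction within the same whole livers, with Abca1 up and Abcg5 and Abcg8 down. Which cells these changes came from was not tested. The same 4 genes were called higher under each of 5 other scalings or background corrections, while the carriers and pumps that fell without stem cells lost their calls with normexp, the array median or scaling to hepatocyte markers (0 called lower in each). Of 18 other settings, Slco1a4 kept its call in 6, Abcc4 in 4, Abcc6 in 8 and Slco2b1 in 7, and leaving out any 1 of mice 4, 5, 6 or 13 ended all 4 of these calls.

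Among 18 genes of bile acid synthesis and conjugation, 2 rose and 2 fell without stem cells, near the 15.7% of all genes called, so the count itself is no result about this list. Cyp7b1, the oxysterol hydroxylase of the acidic pathway, rose by 1.75 ± 0.32 and Baat, which joins bile acids to taurine or glycine, by 0.77 ± 0.16. Amacr, the racemase of side-chain oxidation, fell by 0.90 ± 0.18 and the acyl-CoA synthetase Slc27a2 fell by 0.43 ± 0.13. Of 18 other settings Cyp7b1 kept its call in all 18, Baat and Amacr in 15 each and Slc27a2 in 7. With stem cells only Baat passed, with 0.86 ± 0.16. Cyp7a1, the rate-limiting enzyme of the classical pathway, was also singled out after its values were seen: it gave -1.61 ± 0.61 (adjusted p = 0.0977) and -1.81 ± 0.61 (adjusted p = 0.0635). Markers of other liver cells moved over the same hours without stem cells: 4 of 10 sinusoidal endothelial markers fell (list median -0.78; Gpr182 -3.47, Kdr -1.81, Oit3 -1.47 and Clec4g -1.01), 3 of 10 stellate and fibroblast markers fell (Lrat, Des and Col3a1; median -0.67), 2 of 10 neutrophil markers rose (Ngp and Camp; median 1.90), and 0 of 7 cholangiocyte and 0 of 10 Kupffer cell markers were called. Of 14 leukocyte markers 1 fell (median -0.19). Of all genes, 9.21% were called lower and 6.46% higher there. The summed level of the sinusoidal markers was 5.67 to 6.22 at 2 h and 4.68 to 5.12 at 5 h, and that of the neutrophil markers was 3.91 to 7.18 and 8.17 to 8.52. With stem cells 4 of 10 sinusoidal markers fell (list median -0.35). So did 3 of 10 stellate and fibroblast markers, though 6 of these 10 changed by more than 0 and the list median was 0.04. Those that rose were 3 of 10 neutrophil (median 1.95), 2 of 10 Kupffer cell (0.14), 1 of 7 cholangiocyte (Sox9, list median -0.21) and 1 of 14 leukocyte markers (0.09). Of all genes, 9.79% were called lower and 8.78% higher there. The part of these cells in the transporter changes was not tested.

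**Figure D3:**
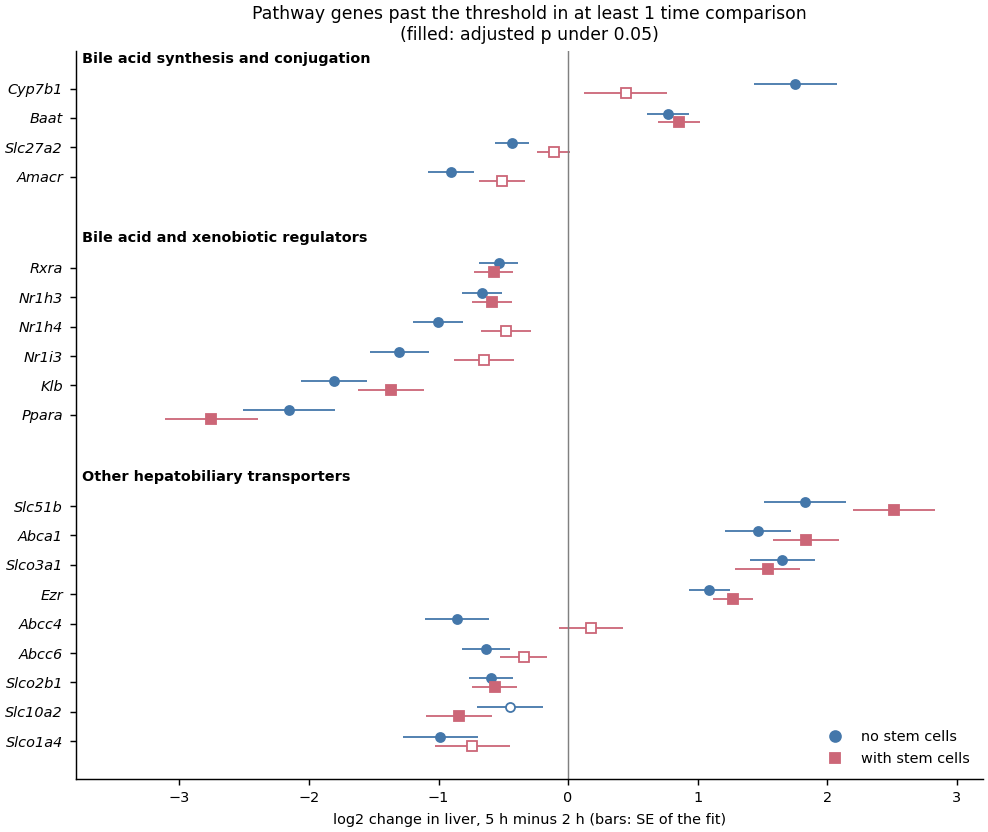
Log2 change in liver from 2 h to 5 h for the genes of bile acid synthesis, regulation and transport that passed the threshold in at least 1 of the 2 time comparisons; bars are the standard error of the limma fit and filled symbols have an adjusted p under 0.05. Slc51b, Slco3a1, Abca1 and Ezr lie to the right of 0 in both treatments, and all 6 regulators lie to the left.

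With stem cells against none, 0 of the 9 transporters were called in liver at either time. At 2 h, with cells given together with concanavalin A, the fitted effects ran from -0.28 (Slco1a1) to 0.23 (Slco1b2), and the groups overlapped for all 9, while 8.22% of all genes had groups that did not. The adjusted p-values ran from 0.864 to 0.998 (limma), with 0.0273% of all genes called. For Abcg5 the 95% interval at 2 h was -0.33 to 0.34, and for Abcc2 it was -0.38 to 0.30. With normexp both effects were -0.45, outside these intervals, with adjusted p = 0.448 and 0.409 (limma). At an unadjusted p under 0.05, 0 of the 9 passed there, against 5.64% of all genes.

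At 5 h, with cells given at 3 h, 8 of the 9 transporters had a higher mean in treated livers. The median effect was 0.28 over the 9, 0.20 over 19 hepatocyte markers and 0.08 over all genes, and 0 transporters passed the test, with 0.0341% of all genes called. Abcg8 gave 0.67 ± 0.27 (95% interval 0.09 to 1.26, adjusted p = 0.351), Abcg5 0.47 ± 0.15 (0.13 to 0.80, adjusted p = 0.282), Abcc3 0.44 ± 0.22 (adjusted p = 0.434), Abcb4 0.35 ± 0.15 (adjusted p = 0.376) and Abcc2 0.24 ± 0.15 (adjusted p = 0.531, limma). For Abcg5, Abcg8 and Slc10a1 the 3 treated livers lay above the 3 untreated ones, which held for 12.7% of all genes in that direction. Within slides 1, 2 and 3 the effect was 0.71, 0.66 and 0.65 for Abcg8 and 0.45, 0.36 and 0.58 for Abcg5. Markers of other cells had higher means in the same livers, with 0 called: the median effect was 0.41 for 10 Kupffer cell, 0.44 for 10 sinusoidal endothelial, 0.53 for 10 neutrophil, 0.24 for 10 stellate and fibroblast, 0.15 for 7 cholangiocyte and 0.27 for 14 leukocyte markers, and their part in these values was not tested. At an unadjusted p under 0.05, 3 of the 9 passed, Abcb4, Abcg5 and Abcg8, against 12.4% of all genes. The 5 h comparison shares its untreated livers with the untreated time comparison above, so low values in mice 4, 5 and 6 enter both.

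The difference between the 2 stem cell effects, which equals the difference between the treated and untreated changes over time, was called for none of the 9 (adjusted p = 1 for each, limma; 0.0136% of all genes called). At an unadjusted p under 0.05 it passed for 0 of the 9, against 4.71% of all genes. It was 0.46 ± 0.21 for Abcg5 (95% interval -0.01 to 0.94), 0.45 ± 0.38 for Abcg8 (-0.38 to 1.28) and 0.29 ± 0.22 for Abcc2 (-0.20 to 0.77). A smaller fall in treated livers was therefore not separated from no difference. In the other lists of bile acid genes 0 genes passed in either stem cell comparison; at 5 h the smallest p-values were those of Nr1i3 (0.95 ± 0.23, adjusted p = 0.209), Klb (0.91 ± 0.25, adjusted p = 0.25) and Cyp7b1 (-1.13 ± 0.32, adjusted p = 0.25).

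The inflammatory cells served to show in which samples the transporters are measured. The 6 transporters measurable in the cells were lower there than in liver at 5 h, in both treatments, against 31.7% of all 16320 genes called lower without and 35.5% with stem cells. Among those with signal above background in all cell samples, the difference without stem cells was -4.71 ± 0.21 for Abcb4, -5.93 ± 0.41 for Abcc3, -7.08 ± 0.46 for Slco1b2 and -7.71 ± 0.41 for Abcb11 (2 samples against 3 livers; largest adjusted p of the 6 was 5.86e-07, limma). Slco1a1 and Abcg8 were not well above background in any of the 4 cell samples, and Abcc2 in 1 of 4; these 3 passed the filter through liver, where they are high, and are given only as bounds. Against the lowest signal of a spot well above background, Abcc2 was at least 190-fold, Slco1a1 at least 61.2-fold and Abcg8 at least 5.29-fold lower in untreated cells than in untreated liver. The 19 hepatocyte markers were lower too, all 19 of them, with a median of -6.92, and all 14 leukocyte markers were higher, with a median of 4.92. Slide and sample type cannot be told apart here. The 2 Abcb4 probes differed in these cells: the brighter one read 0.55, 1.14, 0.46 and 0.70 in samples 983, 985, 987 and 989, and the other read -4.24, -3.68, -2.71 and -3.46.

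With stem cells against none, 0 of the 6 transporters measurable in inflammatory cells were called, where 0.014% of 14259 genes were called (limma, 2 samples against 2). Slc10a1 read -4.89, -1.96, -3.03 and -1.15 in samples 983, 985, 987 and 989, Slco1b2 read -1.10, 0.36, -0.02 and 1.82, and Abcb11 read -2.19, -1.15, -1.20 and 0.48. Abcc3 read -2.61, -0.84, 0.69 and 0.11, and Abcg5 read -5.50, -4.31, -3.51 and -3.01; Slc10a1 and Abcg5 were well above background in 1 of the 2 untreated samples and in both treated ones. Sample 983 was the lowest for each of these 5, and the treated samples lay above the untreated ones for Abcc3 and Abcg5 only, while 27.6% of all genes had such a gap in that direction. The change was 2.13 ± 0.63 for Abcc3 (adjusted p = 0.193) and 1.65 ± 0.50 for Abcg5 (adjusted p = 0.199), and at an unadjusted p under 0.05 these 2 of 6 passed, against 17.9% of all genes. Without sample 985, which leaves sample 983 as the lone untreated sample and assumes that it varies like the treated pair, the changes were 3.01 and 2.24. Without sample 983, which leaves sample 985 as the lone untreated sample, they were 1.24 and 1.05. The size of both changes thus depended on which untreated sample was kept.

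Hepatocyte markers varied over these 4 samples as well. All 19 had a higher mean in the treated samples (median 0.95, 0 called), their median level was 0.20, 0.43, 0.63 and 1.63 in samples 983, 985, 987 and 989, and their summed level on the log2 scale was 6.68 to 8.26 in untreated and 7.84 to 9.14 in treated samples. None of these markers was absent throughout: 18 or 19 of 19 were well above background in each sample. Relative to each gene's own mean over the 4 samples, the markers lay at a median of -1.37, 0.11, -0.13 and 1.07 in samples 983, 985, 987 and 989. The 6 transporters lay at -1.39, -0.02, -0.22 and 1.28. By this measure untreated sample 985 lay above treated sample 987 for the markers and for the transporters. The part of hepatocyte RNA in these values was not tested. The difference between the stem cell effect in inflammatory cells and in liver was called for 0 of these 6, with 2.25% of all genes called. At an unadjusted p under 0.05 it passed for 2 of the 6, Abcc3 (1.69 ± 0.58, adjusted p = 0.156) and Abcg5 (1.18 ± 0.42, adjusted p = 0.162), against 17.5% of all genes.

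**Figure D4:**
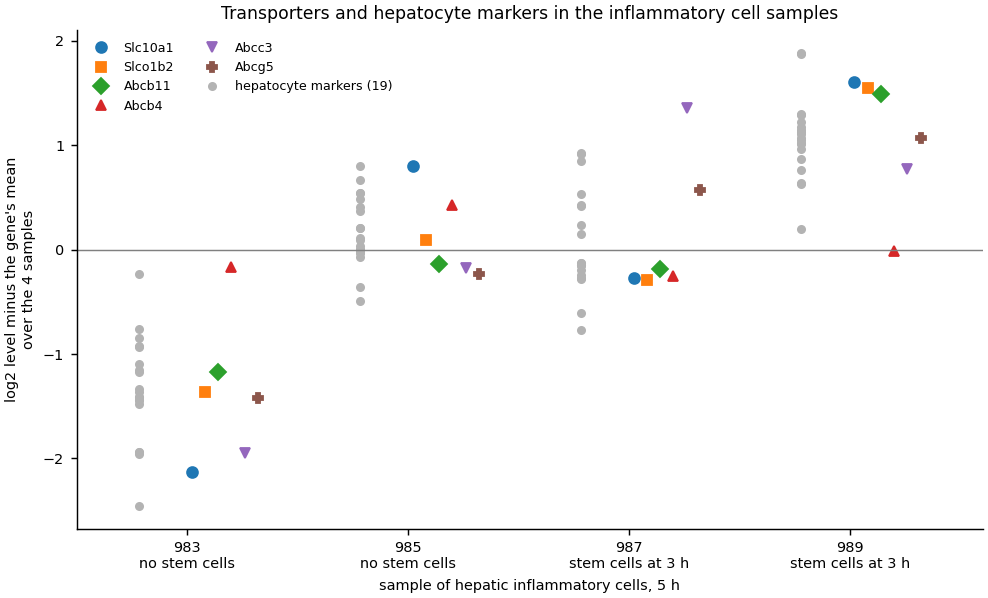
Log2 level of the 6 transporters measured in hepatic inflammatory cells (coloured symbols) and of 19 hepatocyte markers (grey), each minus its own mean over the 4 samples. The median of the markers is lowest in sample 983 and highest in sample 989, and Slc10a1, Slco1b2, Abcb11 and Abcg5 have the same lowest and highest samples.

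Over the 12 livers the transporters differed in their pattern, given here as a description over points that share 4 groups and 3 slides. Abcg5 and Abcg8 had a Pearson r of 0.97, Abcg5 and Abcc2 of 0.95 and Abcg8 and Abcc2 of 0.94. After subtraction of the group means these became 0.63, 0.52 and 0.36. Slc10a1 and Slco1b2, both uptake carriers, had r = 0.88 over all livers and 0.72 within groups, and Abcb4 and Abcc3 had 0.84 and 0.69. Abcb11 and Abcc2 had 0.32 and -0.03. Other pairs ran in opposite directions within groups: Abcb4 and Abcg8 had 0.44 over all livers and -0.89 within groups, Abcc3 and Abcg8 0.37 and -0.76, and Slco1a1 and Abcg5 -0.70 and -0.77. The 2 genes most like Abcg8 among all genes tested were Tmem204 and Smc1b (r = 0.98 for both), those most like Abcg5 were Ccny and Xylb (0.97 for both), and those most like Abcc2 were N4bp2l1 and Stard9 (0.97 for both). For Slc10a1 they were Pfkfb1 (0.95) and Hibch (0.94), for Slco1b2 Slc46a3 (0.95) and Coasy (0.94), for Abcb11 Trappc5 and Ctsd (0.95 for both), for Abcb4 Crat (0.94) and Lhx6 (0.93) and for Abcc3 Dnajc5b (0.96) and Lmf2 (0.92). Slco1a1 had the lowest likeness to any gene, with Jpt2 and Nipal2 at 0.83 for both.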

How the data were processed

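RNA of 12 livers and 4 samples of hepatic inflammatory cells was hybridised to Agilent arrays with Cy3 alone. The deposited scanner files hold spot intensity on a linear scale, background-subtracted and detrended by Agilent Feature Extraction 10.5.1.1 and not normalized between arrays, per the file headers. The authors' value table holds the same intensity values (largest difference 0). Groups follow the labels. Here, processed signals were divided by the 75th percentile of their array and put on the log2 scale, outlier and control spots were left out, and probes were kept when well above background on at least 3 of 12 liver, 2 of 4 cell or 2 of 16 arrays. The brightest kept probe by mean stood for a gene. Of 41174 probes, 6303 had no symbol. Probe positions are on mm8, per the file headers, with no annotation of that build used here.

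Groups were compared with limma 3.58.1 in R 4.3.3 (lmFit, eBayes, 2-sided), with Benjamini-Hochberg adjustment over all genes tested, threshold 0.05. Livers, cells and both together had separate fits. In simulated data 100 genes were changed by 1 and 100 by 2 on the log2 scale. For the untreated time comparison (14654 genes) 51% of changes of 1 and 85% of changes of 2 were recovered. For inflammatory cells (14259 genes) 0% of either were. The data of the untreated time comparison had 2296 genes called, far more than were changed in the simulation. The adjustment is less strict there, so its simulated shares need not carry over.

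Where no array of a group read a gene well above background, a fold is a bound: the dim group then enters with the mean, over its arrays, of the lowest signal well above background or the gene's own signal, whichever is higher. Named list genes are those past the threshold, up to 8 per list and comparison by size, or, where none passed, the 3 of smallest p; for each transporter the 2 genes of highest r are named. The transporters, lists and alternatives were chosen with earlier results of these data known. Promoter windows came from RefSeq (GRCm38.p6); protein sequences were not used here. The name and value of a hepatocyte marker that fell are not reported here.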

Additional observations from a re-analysis of the deposited data

How the results depend on the processing

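The number of transporters called between 2 h and 5 h was 3 without stem cells. It was 1 with normexp background correction (offset 50), and 5 with quantile normalization, 6 with array weights and 5 without mice 10 and 13. With stem cells it was also 3. There it was 4 with quantile normalization, array weights or the 75th percentile of probes detected on all arrays, each of which added Slco1b2. It was 1 with normexp, with the array median or with scaling to hepatocyte markers. Abcg8 was the 1 that remained each time, and its change ran from -2.25 to -1.34 without and from -2.13 to -1.15 with stem cells over all settings. Leaving out each liver in turn gave 3 to 3 without and 2 to 3 with stem cells, and slide as a block gave 3 and 3. In inflammatory cells the count of 0 became 1 with normexp (Abcc3, adjusted p = 0.0179), and 0 to 2 when samples were left out. The difference between cells and liver gave 0 to 3, with Slc10a1, Abcc3 and Abcg5 called without sample 985. No called change reversed under the settings run, and the causes were not tested.

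The count of all genes called moved from 2296 to between 286 (normexp) and 3182 (array weights) without stem cells, and from 2722 to between 824 and 4504 with them. For stem cells it moved from 4 to between 0 and 485 at 2 h, from 5 to between 0 and 141 at 5 h, and from 2 to between 0 and 2092 in inflammatory cells, with the 485 without mouse 13 and the 2092 without sample 985. The difference between the liver effects went from 2 to between 0 and 55, that between cells and liver from 367 to between 3 and 2381 (without sample 985), and cells against liver with stem cells from 10412 to 6734 with normexp. The share of called genes that were higher at 5 h, 41.2% and 47.3%, became 58.4% and 54.2% with the array median, 47.9% and 68.8% with normexp, and 84.8% and 79.8% when livers were scaled to hepatocyte markers. That last scaling raised the median of all genes by 0.30 and 0.24, and the array median raised it by 0.13 and 0.06. In the stem cell comparison at 5 h these 2 scalings lowered it by 0.14 and 0.16, where 8 of 9 transporters had been above 0, and in inflammatory cells the array median lowered it by 0.21 and normexp raised it by 0.14. No transporter changed sign at 5 h under quantile, normexp, array median or hepatocyte scaling. In the stem cell comparison at 2 h, 0 transporters were called under any setting, and Slc10a1, Slco1b2, Abcb11, Abcb4, Abcc3 and Abcg5 changed sign with normexp. Between 2 h and 5 h, Abcb11 without stem cells and Abcb11, Abcb4 and Abcc3 with them changed sign without a call under normexp, the array median or scaling to hepatocyte markers. No replicate number is shared between groups, so no pairing by number was made; slide was the only block.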
